A study of Mus musculus with 8 samples.

Results

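The 42 genes described here encode the contractile apparatus of the mature muscle fibre and the proteins that supply it with calcium and energy. They were taken by symbol from a list, by a rule that uses no measured value, and all 42 were found among the 24630 genes of the deposited table. The list was divided into 13 fast fibre isoforms, 10 slow fibre isoforms, 5 embryonic, perinatal or cardiac isoforms, 8 sarcomere proteins shared by fibre types, 3 membrane proteins and 3 genes of fibre metabolism. The libraries came from muscle stem cells (satellite cells) sorted from the limb muscles of male C57BL/6 mice as CD45-, CD31-, Sca1- and VCAM+ and frozen after sorting. Young animals were 4 months old (n = 4) and old animals 22 months (n = 4), with 1 animal per library and no treatment or transgene named in the labels. The comparison asks which transcripts differ with age in quiescent cells, and here which fibre genes are found in the RNA of the sorted cells.

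A sarcomere slides thin filaments of actin, tropomyosin and troponin along thick filaments of myosin, between Z-discs and along the giant proteins titin and nebulin. Calcium released through Ryr1 starts contraction and is pumped back by the SERCA pumps encoded by the Atp2a genes. Most of these proteins exist in fast, slow and developmental forms encoded by separate genes, and satellite cells begin to make them in quantity only when they differentiate, under Myod1, Myog and the Mef2 factors. Satellite cells lie directly on fibres, and in bulk RNA fewer cells of a type and less RNA per cell cannot be told apart. Whether the fibre transcripts came from the sorted cells or from fibre material left with them was not tested.

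Values are RPKM, that is reads scaled by gene length and by library size, rescaled so that each library refers to its own total of reads in genes, called library totals below. On this scale the median log2 fold change (old minus young) of the 5703 genes tested was -0.01, and on the deposited scale it was 0.64. Reads in genes, recovered from the steps of the values, ranged from 1912423 to 6556778 in young and from 20072210 to 24863125 in old libraries, so depth and age cannot be told apart. In a gene of 1 kb, 3 reads were worth 0.458 to 1.57 RPKM in young and 0.121 to 0.149 RPKM in old libraries, a limit that covers counting error only. Genes of 1411 olfactory and vomeronasal receptors, silent in muscle, averaged 0.486 ± 0.342 RPKM in young animals and 0.0270 ± 0.00986 RPKM in old animals (SD, n = 4 each). All 12 satellite cell markers on the fixed list were measured above the filter. They summed to 10524 to 13500 CPM (reads scaled to a common library total) in young and 9425 to 13197 CPM in old libraries. Of these markers 7 were called lower and 1 higher in old animals, where 12.5% and 12.3% of all genes tested were. The 42 fibre genes summed to 2220 to 2808 CPM in young and 2036 to 3055 CPM in old libraries, so the groups overlapped.

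A gene was tested where its mean deposited value reached 5 RPKM, which 5703 genes did, and p-values from limma were adjusted over all of them (Benjamini-Hochberg). Of the 42 fibre genes 16 passed this filter and 26 did not. Of the 16, 4 fell with age (Actn3, Atp2a1, Pygm and Tnnt1), 2 rose (Atp2a2 and Tpm3) and 10 were not called. Over all genes tested, 12.5% were called lower and 12.3% higher in old animals. The median log2 fold change of the 16 was -0.50, beside -0.01 over all genes tested, and 14 of 16 had a negative value. Without old library 2 the median of the 16 was -0.16. Many of these genes varied together among the old libraries, so the 14 are not independent. On the deposited scale none of the 16 was called lower (limma, adjusted p under 0.05), where 1.12% of all genes were. At an unadjusted p under 0.05 (limma) 0 of the 16 were lower. On this scale 3 were called higher at the adjusted threshold, Atp2a2, Tpm3 and Tpm2, where 68.1% of all genes were. There a lower filter of 1 RPKM also gave no lower fibre gene (limma, 1 at an unadjusted p under 0.05), where 5.34% of all genes were called lower, and 42.1% were called higher. As deposited, the log2 fold changes of the 4 genes that fell on library totals were -0.19 (Actn3), -0.37 (Atp2a1), -0.13 (Tnnt1) and 0.18 (Pygm), all below the median of 0.64 over all genes, so their calls, and for Pygm the sign, depend on the scale.

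**Figure D1:**
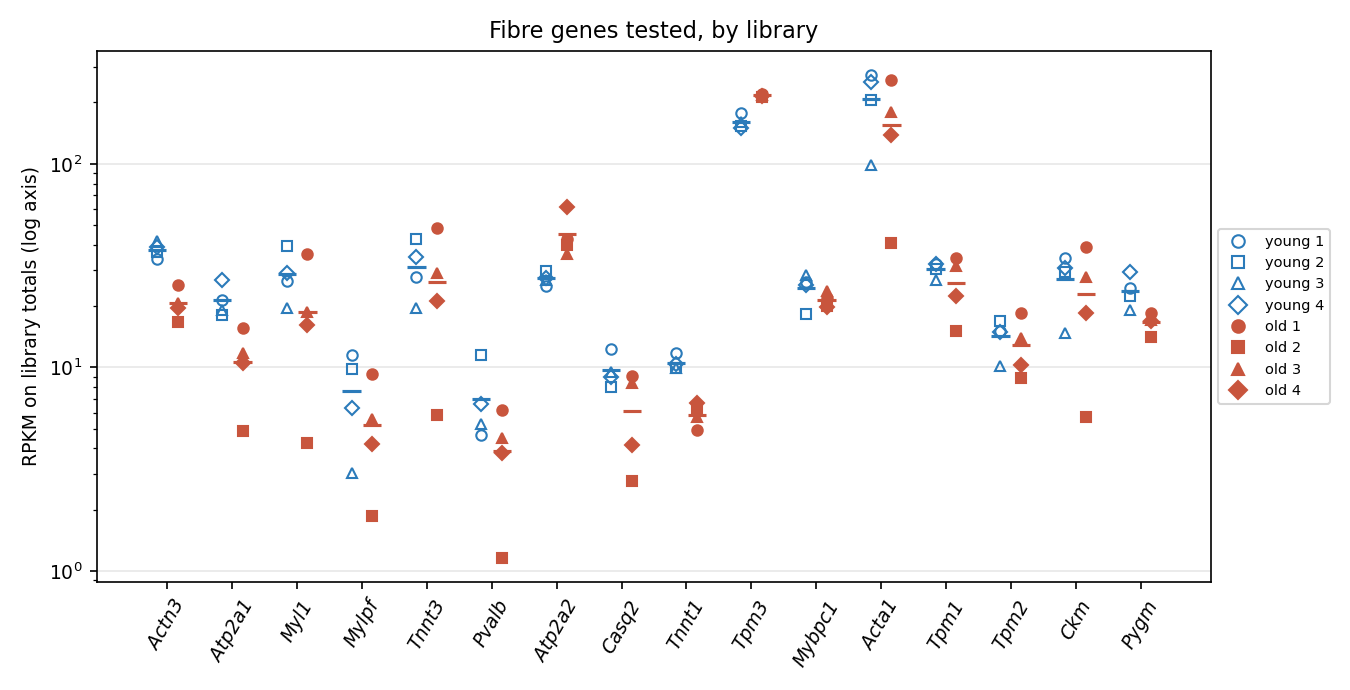
RPKM on library totals (log axis) of the 16 fibre genes tested, with 1 symbol per library (open blue, 4 young; filled red, 4 old; the shape gives the replicate number) and bars at the group means. Old library 2 (filled square) was the lowest old library for 13 of the 16 genes, and Tpm3 lay between 213 and 221 RPKM in all 4 old libraries.

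Among the fast isoforms, Actn3 encodes the alpha-actinin that anchors thin filaments at the Z-disc of fast fibres. It stood at 34.0, 36.9, 41.8 and 38.9 RPKM in young libraries 1 to 4 and at 25.4, 16.6, 20.7 and 19.6 RPKM in old libraries 1 to 4. The groups did not overlap, and every old library was below the lowest young one. Its log2 fold change was -0.86 ± 0.14 (SE; limma, adjusted p = 0.00214). Actn3 rested on 204 to 793 reads in young and 1183 to 1474 reads in old libraries.

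Atp2a1, the SERCA1 calcium pump of fast fibres, had 21.3, 18.0, 19.1 and 26.8 RPKM in young and 15.5, 4.89, 11.7 and 10.5 RPKM in old libraries 1 to 4. The groups were again apart, and old library 2 was far below the other old libraries. Its log2 fold change was -1.02 ± 0.26 (adjusted p = 0.0172, limma). Without young library 1 the adjusted p was 0.0514 and without young library 4 it was 0.0503. Exons of Atp2a1 (chromosome 7, 126445858 to 126463108, minus strand, GRCm38) share 763 bases with Rabep2 on the other strand, and reads in shared bases cannot be assigned by strand in libraries of this kind.

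The other 4 fast isoforms tested were not called. Myl1, an alkali light chain of fast myosin, had 26.5, 39.6, 19.6 and 29.2 RPKM in young and 36.1, 4.27, 18.8 and 16.1 RPKM in old libraries 1 to 4. Old library 1 stood above 3 of the 4 young libraries while the other 3 old libraries were below all of them, old library 2 by far. Its log2 fold change was -0.85 with a 95% interval from -1.86 to 0.17 (adjusted p = 0.1999, limma). It was called lower without old library 1 (adjusted p = 0.0478).

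Tnnt3, the fast troponin T that ties the troponin complex to tropomyosin, had the highest mean level per length among the fast isoforms of old animals. It had 27.7, 42.9, 19.7 and 34.9 RPKM in young and 48.5, 5.84, 29.1 and 21.1 RPKM in old libraries 1 to 4. Both the highest and the lowest of the 8 values were old. With a log2 fold change of -0.51 and a 95% interval from -1.57 to 0.55 it was not called, and the value was 0.045 without old library 2.

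Mylpf, the regulatory light chain of fast myosin, averaged 7.67 ± 3.80 RPKM in young and 5.23 ± 3.11 RPKM in old animals (SD, n = 4). Pvalb, the calcium buffer parvalbumin, averaged 7.01 ± 3.13 and 3.90 ± 2.09 RPKM. Their log2 fold changes were -0.50 and -0.76 (adjusted p = 0.396 and 0.138, limma), and both were highest in old library 1 and lowest in old library 2 among the old libraries.

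The remaining 7 fast isoforms lay below the filter. Myh4, the myosin heavy chain of the fastest (type IIB) fibres, was the most abundant of the listed heavy chains, with 3.82, 8.52, 3.45 and 5.32 RPKM in young and 6.61, 0.662, 3.84 and 2.48 RPKM in old libraries 1 to 4. Old library 1 lay within the young range and old library 2 far below it. It was represented by 62 to 182 reads in young and 99 to 798 reads in old libraries. Tnni2, the fast inhibitory troponin, had 4.83 ± 1.87 RPKM in young and 5.06 ± 3.96 RPKM in old animals and was just outside the filter with a mean deposited value of 4.91 RPKM, while Pvalb was just inside it with 5.04 RPKM. Mybpc2, the fast myosin-binding protein C, averaged 4.18 and 2.97 RPKM, and Casq1, the fast calcium store protein calsequestrin, 4.12 and 1.67 RPKM in young and old animals. Myh1 (type IIX) averaged 1.28 and 0.589 RPKM, and Myh2 (type IIA) 0.611 and 0.108 RPKM.

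Tnnc2, the calcium-binding subunit of fast troponin, was the exception among the fast troponins. It had 0 or 1 read in every young library and 7, 1, 0 and 0 reads in old libraries 1 to 4, although Tnnt3 and Tnni2 of the same complex reached 1541 and 313 reads in old library 1. In the annotation 592 of the 800 exonic bases of Tnnc2 (chromosome 2, 164777161 to 164779967, minus strand) overlap Ube2c on the other strand. The sources used here do not give how shared reads were counted, and their part in the low value was not tested.

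The genes Myh3, Myh2, Myh1, Myh4 and Myh8 lie in that order on the plus strand of chromosome 11, from 67078300 to 67308634 (GRCm38). These neighbours have closely related sequences, as do Acta1 and Actc1, so the share of reads given to each depends on how multiply mapping reads were treated and is uncertain.

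Among the slow isoforms 2 rose, 1 fell and 2 were not called. Tpm3, the slow alpha-tropomyosin, had 177, 154, 161 and 150 RPKM in young and 221, 213, 217 and 216 RPKM in old libraries 1 to 4. It was the most abundant of the 42 genes in old animals, and the old libraries differed among themselves by a factor of only 1.04. Tpm3 rose by 0.44 ± 0.10 on the log2 scale (adjusted p = 0.0123, limma). Tpm3 also encodes short tropomyosins of the cytoskeleton of non-muscle cells, read from an internal start, and a value per gene does not separate the forms.

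Atp2a2, the SERCA2 pump of slow and cardiac muscle, had 25.2, 29.8, 26.8 and 27.5 RPKM in young and 42.8, 39.9, 36.2 and 61.7 RPKM in old libraries 1 to 4. The lowest old library was above the highest young one. Atp2a2 rose, with a log2 fold change of 0.68 ± 0.16 (adjusted p = 0.0109, limma), and it was 0.68 with an adjusted p of 0.0532 without young libraries 1 and 2. A variant of this pump works in the endoplasmic reticulum of most cell types. Set against each other per length, Atp2a1 stood at 0.605 to 0.973 times the level of Atp2a2 in young and at 0.123 to 0.362 times in old libraries, with no overlap between the groups. Among the pairs compared here, the other whose groups were apart went the other way. Mylpf stood at 2.97 to 10.1 times the level of the slow light chain Myl2 in young and at 18.0 to 90.9 times in old libraries. Myl2 had at most 20 reads in any library. The young mean of Myl2, 1.53 RPKM, was under 1.59 RPKM, the 95th percentile of the silent receptor genes in young animals. The ratios Myh4 to Myh7, Casq1 to Casq2, Tnni2 to Tnni1 and Tnnt3 to Tnnt1 overlapped between the ages.

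Tnnt1, the slow troponin T, had 11.8, 9.96, 9.90 and 10.4 RPKM in young and 4.93, 6.17, 5.69 and 6.67 RPKM in old libraries 1 to 4. Here old library 1 was the lowest of the old libraries and old library 2 the second highest, unlike in the fast isoforms, and the age groups did not overlap. Tnnt1 fell by 0.75 on the log2 scale (SE 0.13; adjusted p = 0.00272, limma). The level of Tnnt3 relative to Tnnt1 ran from 1.99 to 4.31 in young and from 0.947 to 9.84 in old libraries.

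Mybpc1, the slow myosin-binding protein C, had 24.7 ± 4.46 RPKM in young and 21.3 ± 1.86 RPKM in old animals (SD, n = 4) and was not called (log2 fold change -0.19, 95% interval -0.50 to 0.13). Casq2, the calsequestrin of slow and cardiac muscle, had 12.3, 8.03, 9.48 and 8.99 RPKM in young and 9.03, 2.76, 8.42 and 4.16 RPKM in old libraries 1 to 4. Its log2 fold change was -0.69 (adjusted p = 0.0971, limma), and it was called lower without old library 1 (adjusted p = 0.0413) and without old library 3 (adjusted p = 0.0482).

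The slow isoforms that are most specific to type I fibres were at the edge of detection. Myh7, the slow myosin heavy chain, had 12 to 24 reads in young and 1 to 12 reads in old libraries, and averaged 0.541 and 0.0409 RPKM. The slow light chains Myl2 and Myl3, with 1.53 and 0.758 RPKM in young animals and at most 0.103 and 0.1497 RPKM in any old library, were represented by at most 20 reads in any library. Tnnc1 and Tnni1, the slow troponins C and I, averaged 1.18 and 1.15 RPKM in young and 0.373 and 0.211 RPKM in old animals.

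All 5 embryonic, perinatal and cardiac isoforms lay below the filter. Myl4, the embryonic and atrial light chain, was the highest of them in both ages, with 1.44, 3.50, 1.28 and 2.08 RPKM in young and 0.559, 0.815, 0.839 and 0.943 RPKM in old libraries 1 to 4. Actc1, the cardiac actin that developing skeletal muscle also makes, averaged 1.74 ± 0.605 and 0.237 ± 0.109 RPKM. The embryonic heavy chain Myh3 averaged 0.850 and 0.0574 RPKM, the perinatal heavy chain Myh8 0.734 and 0.0177 RPKM, and cardiac troponin T, Tnnt2, 0.736 and 0.0898 RPKM. Young library 2, the shallowest, was highest for all 5. Young and old values did not overlap for any of them, and 42% of all genes with a read also lay apart with old below young.

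**Figure D2:**
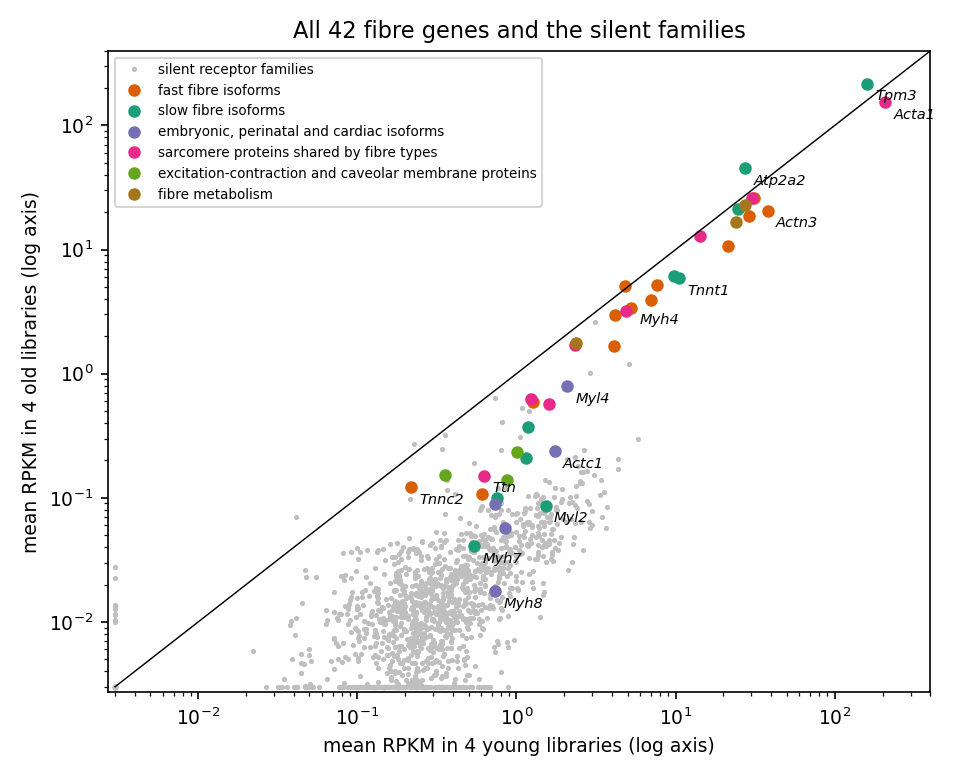
Mean RPKM on library totals in 4 old libraries against 4 young libraries (both axes log) for the 42 fibre genes, coloured by group, and for 1411 receptor genes that are silent in muscle (grey; genes at 0 sit at the edge). The diagonal marks equal means. Myh7, Myh3 and Myh8 lie inside the grey cloud, while Tpm3, Acta1 and Atp2a2 lie far above it.

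The silent receptor genes were 18.0 times higher in young than in old libraries on average, and the groups did not overlap, with old below young, in 55.4% of them. The same held for 13 of the 26 fibre genes below the filter and for 42% of all 23461 genes with a read, so the share was near the background. In the other direction 0 of the 26 and 3.77% of all genes were apart. Of the 16 tested, 4 lay apart below and 2 above the young values, against 13.3% and 13.8% of the tested genes. In young animals 16 of the 42 genes had a mean under 1.59 RPKM, the 95th percentile of the silent genes. In old animals 3 had a mean under the corresponding 0.0802 RPKM (Myh7, Myh3 and Myh8). The young-to-old ratio of means had a median of 1.80 over the 7 low fast isoforms, 7.56 over the 5 low slow isoforms and 8.20 over the 5 developmental isoforms. With a filter of 1 RPKM, 24 genes were tested, 6 were lower and 2 higher, where 20.5% and 7.12% of all genes were called. The added calls were Casq1 (log2 fold change -0.97, adjusted p = 0.0217) and Myl4 (-0.73, adjusted p = 0.0404, limma). Without any filter 19 were lower and 2 higher, where 40.2% and 4.05% of all genes were called.

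Of the sarcomere proteins shared by fibre types, 3 of 8 were tested and none was called (limma, 0 also at an unadjusted p under 0.05). Acta1 (chromosome 8, 123891769 to 123894751, minus strand), skeletal muscle actin, was the most abundant of all 42 genes in young animals. It had 273, 205, 98.1 and 253 RPKM in young and 259, 40.6, 180 and 138 RPKM in old libraries 1 to 4. Old library 1 reached the level of the highest young libraries while old library 2 was the lowest of all 8. Acta1 had a log2 fold change of -0.60 with a 95% interval from -1.68 to 0.48 (adjusted p = 0.401, limma), and -0.056 without old library 2. The tropomyosins Tpm1 and Tpm2 averaged 30.3 ± 2.50 and 14.3 ± 2.87 RPKM in young and 25.9 ± 8.92 and 12.9 ± 4.30 RPKM in old animals (SD, n = 4), and both also have non-muscle forms. Their log2 fold changes were -0.28 and -0.16 (adjusted p = 0.364 and 0.612, limma).

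The other shared sarcomere genes were low. Tcap, the titin cap at the Z-disc, averaged 4.85 and 3.21 RPKM, and Actn2, the Z-disc actinin of all fibres, 2.32 and 1.69 RPKM in young and old animals. Ldb3, a Z-disc protein that binds actinin, averaged 1.60 and 0.570 RPKM. The giant proteins titin and nebulin had 0.627 and 1.23 RPKM in young and 0.151 and 0.620 RPKM in old animals for Ttn and Neb. Their length gave them 163 to 511 reads (Ttn) and 76 to 458 reads (Neb) per library even so.

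The 3 membrane proteins were below the filter. The voltage sensor Cacna1s was the highest, with 1.36, 1.28, 0.535 and 0.832 RPKM in young and 0.472, 0.0491, 0.1802 and 0.235 RPKM in old libraries 1 to 4. The calcium release channel Ryr1 averaged 0.875 RPKM in young and 0.140 RPKM in old animals. Neither gene overlapped between the ages, and 42% of all genes with a read also lay apart with old below young. The young means of both were under 1.59 RPKM, the 95th percentile of the silent receptor genes in young animals. Cav3, the caveolin of muscle, had 0 to 6 reads in young and 1 to 7 reads in old libraries. Exons of Cacna1s share 1309 bases with 1 annotated gene of the other strand, and those of Ryr1 share 864 bases with 2 such genes.

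In fibre metabolism, Pygm, the muscle glycogen phosphorylase, had 24.6, 22.4, 19.1 and 29.3 RPKM in young and 18.5, 14.0, 17.2 and 16.9 RPKM in old libraries 1 to 4. The highest old library lay just under the lowest young one. Pygm fell by 0.49 on the log2 scale (SE 0.14; adjusted p = 0.0292, limma). This call was lost without young library 1 or 4 or old library 2 or 4 (adjusted p at most 0.0827), and after thinning all libraries to the depth of the shallowest (adjusted p = 0.111).

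Ckm, the muscle creatine kinase that buffers ATP, had 34.4, 29.3, 14.7 and 30.9 RPKM in young and 39.2, 5.72, 27.8 and 18.6 RPKM in old libraries 1 to 4. Again both extremes were old. Its log2 fold change was -0.45 with a 95% interval from -1.47 to 0.56, and it was 0.066 without old library 2. Mb, the oxygen store myoglobin, averaged 2.37 and 1.76 RPKM in young and old animals, with 8 to 75 reads per library.

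**Figure D3:**
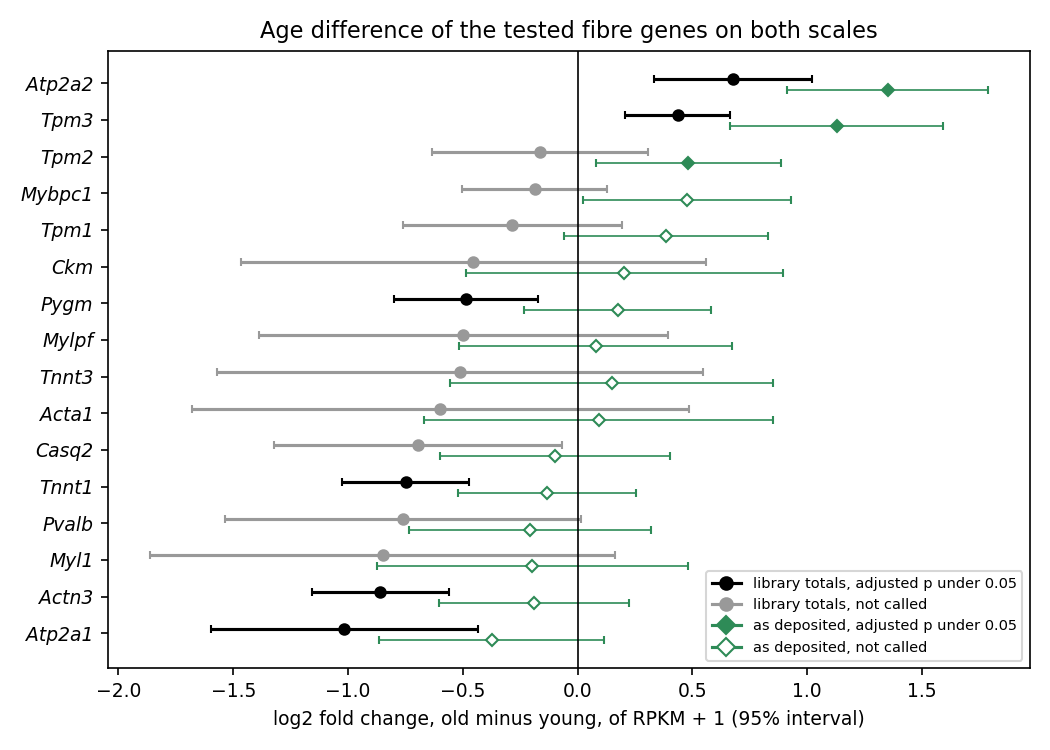
Log2 fold change (old minus young, of RPKM + 1, n = 4 each) with its 95% interval for the 16 fibre genes tested, on library totals (circles, black where called) and as deposited (green diamonds, filled where called). The intervals of Acta1, Ckm, Tnnt3 and Myl1 on library totals are the widest, and every deposited value lies to the right of its partner.

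The old libraries followed the same order in most of the fibre genes that passed the filter. Values fell from old library 1 through libraries 3 and 4 to old library 2 in 13 of the 16 tested genes, an order that 6.56% of the 5703 tested genes showed. As deposited it was seen in 10 of 16, against 2.26% of all genes. The order was noticed in these data and is given as a description. The exceptions among the 16 on library totals were Atp2a2, Tnnt1 and Mybpc1. Tpm3 and Pygm held the order although their highest old value was only 1.04 and 1.32 times the lowest. Of all 42 genes 20 showed it. These were 10 of 13 fast, 2 of 10 slow and 5 of 8 shared genes, 3 of 3 of metabolism, 0 of 5 developmental isoforms and 0 of 3 membrane proteins.

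The width of this difference varied among the genes. The highest old value was 8.45 times the lowest for Myl1, 8.30 times for Tnnt3, 6.86 times for Ckm, 6.36 times for Acta1, 5.33 times for Pvalb and 5.01 times for Mylpf. For Casq2, Atp2a1, Tpm1 and Tpm2 it was 3.27, 3.17, 2.30 and 2.09 times. Over all tested genes the median was 1.37 times and the 95th percentile 2.30 times. Of these 10 genes with a ratio of at least 2, only Atp2a1 was called between the ages. In the other 6 (Atp2a2, Actn3, Tnnt1, Pygm, Mybpc1 and Tpm3) the ratio lay between 1.04 and 1.71, and 5 of them were called, all but Mybpc1. A wide spread within an age enlarges the error of the age difference. These counts of calls therefore follow in part from the test itself, and the share called among all genes of like spread was not counted. A missing call among the 10 does not show that the ages were alike.

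**Figure D4:**
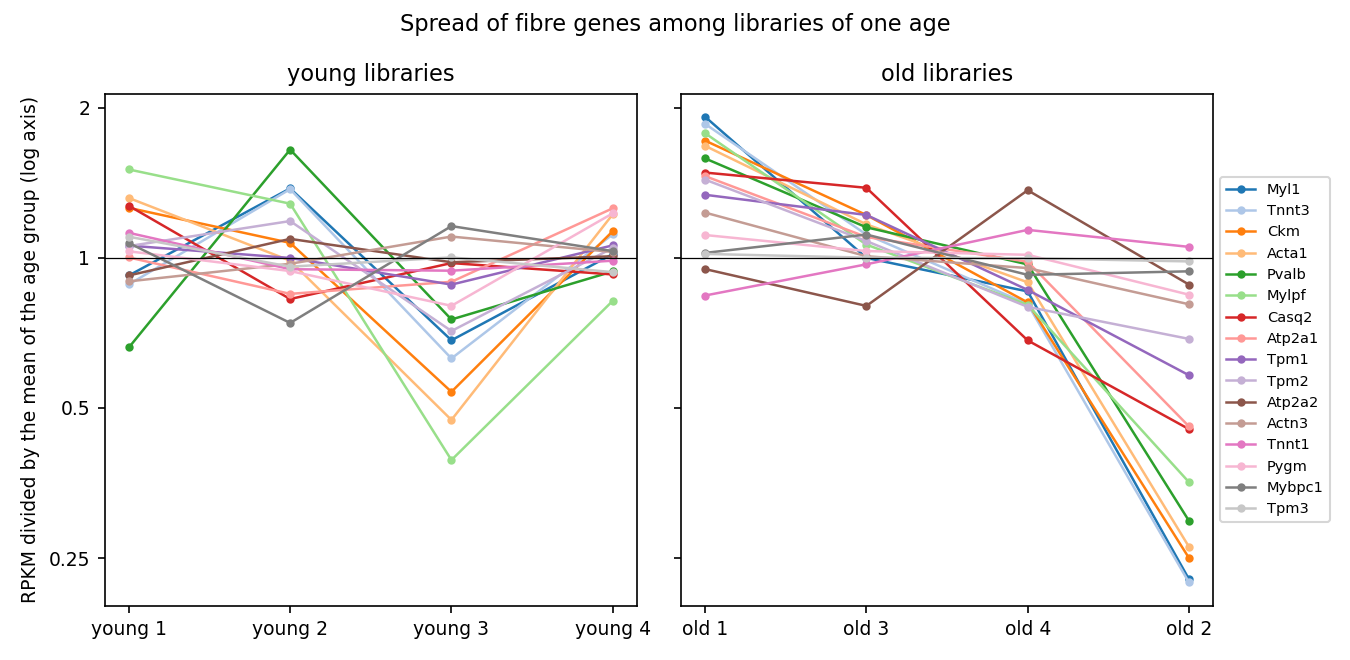
RPKM of each tested fibre gene divided by the mean of its age group (log axis), in the 4 young libraries (left) and the 4 old libraries, ordered 1, 3, 4, 2 (right). Myl1, Tnnt3, Ckm and Acta1 run together from old library 1 down to old library 2, where they are lowest, whereas Tpm3, Mybpc1 and Pygm stay near 1.

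Among young animals the highest library varied from gene to gene. The median ratio of the highest to the lowest library over the 16 tested genes was 1.55 in young and 2.74 in old animals. Acta1, Ckm, Myl1, Tnnt3, Mylpf, Tpm1, Tpm2, Pygm and Tnnt1 were lowest in young library 3, while Actn3 and Mybpc1 were highest there. The share of all tested genes lowest in that library was not counted. The highest young library stood at 3.82 times the lowest for Mylpf and at 2.79 times for Acta1. Over all tested genes the median ratio among young libraries was 1.41.

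Of the genes outside the list, those most like the fast isoforms were found by the correlation of their deviations from the age group means with those of the 6 tested fast isoforms, over 8 libraries. The 5 highest were Myoz1 (r = 0.993), Apol10b (0.987), Eno3 (0.982), Pgam2 (0.977) and Hspb1 (0.972). Myoz1 encodes a Z-disc protein of fast fibres, Eno3 and Pgam2 the muscle forms of enolase and phosphoglycerate mutase, and Hspb1 a small heat shock protein. Myoz1 stood at 16.9, 1.71, 7.87 and 7.35 RPKM in old libraries 1 to 4 and averaged 10.7 ± 3.70 RPKM in young animals (SD, n = 4). The reference was the mean of the 6 fast isoforms, which did not follow it equally. Their own r was 0.998 for Tnnt3, 0.997 for Myl1, 0.919 for Pvalb, 0.882 for Atp2a1, 0.859 for Mylpf and 0.718 for Actn3. The genes named above are thus most like Tnnt3 and Myl1, and less like Actn3. Among the other fibre genes r was 0.959 for Ckm and 0.931 for Acta1. It was 0.127 for Atp2a2, 0.062 for Tpm3, -0.074 for Mybpc1 and -0.494 for Tnnt1.

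Sequence before the transcript start is shown for genes of both behaviours: Ckm and Myl1, which differed widely among old animals, and Tnnt1 and Tpm3, which did not and were called between the ages. The set of RefSeq starts used here (GRCm38.p6) held 36 of the 42 genes, with 45 starts in all. It had no entry for Tnnt3, Tnni2, Tcap, Neb, Atp2a2 and Actn3. The 250 bases before each were searched on both strands for the E-box, CANNTG, bound by Myod1 and its relatives, for the MEF2 site and for the CArG box bound by Srf. An E-box was found before 37 of the 45 starts and before 66.2% of all 32851 starts. A MEF2 site was found before 6 of 45 starts and 2.92% of all, and a CArG box before 6 of 45 and 1.47% of all. In the sequences below, 5′ to 3′ along the gene, capitals mark E-boxes, of which each window holds 1; none overlaps a MEF2 site or CArG box, and neither of these was found in the 5 windows. A match is a description of the letters, not of binding.
Ckm, chr7:19410844-19411093, plus strand: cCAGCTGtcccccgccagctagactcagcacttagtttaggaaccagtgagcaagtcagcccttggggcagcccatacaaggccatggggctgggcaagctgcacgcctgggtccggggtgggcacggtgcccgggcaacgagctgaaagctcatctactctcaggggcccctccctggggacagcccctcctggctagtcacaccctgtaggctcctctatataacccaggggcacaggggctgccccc
Myl1, chr1:66945057-66945306, minus strand: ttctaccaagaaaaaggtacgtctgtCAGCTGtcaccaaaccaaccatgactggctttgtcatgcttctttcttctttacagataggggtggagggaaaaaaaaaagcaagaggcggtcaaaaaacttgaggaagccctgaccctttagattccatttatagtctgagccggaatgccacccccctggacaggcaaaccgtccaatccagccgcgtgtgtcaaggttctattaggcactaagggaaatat
Tnnt1, chr7:4515976-4516225, minus strand: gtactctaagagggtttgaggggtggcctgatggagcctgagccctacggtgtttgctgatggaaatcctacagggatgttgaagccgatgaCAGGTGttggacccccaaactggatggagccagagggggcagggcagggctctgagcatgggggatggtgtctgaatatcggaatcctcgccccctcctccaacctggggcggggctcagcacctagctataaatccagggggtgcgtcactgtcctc
Tpm3, first start, chr3:90072401-90072650, plus strand: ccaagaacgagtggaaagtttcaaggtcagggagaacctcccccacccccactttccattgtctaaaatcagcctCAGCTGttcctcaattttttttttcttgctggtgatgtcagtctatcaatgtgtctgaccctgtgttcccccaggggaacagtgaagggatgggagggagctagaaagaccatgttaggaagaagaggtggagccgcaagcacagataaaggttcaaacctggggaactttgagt
Tpm3, internal start, chr3:90079271-90079520, plus strand: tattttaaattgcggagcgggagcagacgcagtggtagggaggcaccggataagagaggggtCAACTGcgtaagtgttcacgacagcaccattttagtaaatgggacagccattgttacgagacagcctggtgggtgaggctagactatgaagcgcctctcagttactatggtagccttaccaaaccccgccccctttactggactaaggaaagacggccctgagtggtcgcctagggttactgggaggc
The E-box letters of Ckm, Myl1 and the first start of Tpm3 were the same, CAGCTG, while Tnnt1 had CAGGTG and the internal start of Tpm3 CAACTG. The first of these stood before genes that differed widely among old animals and before one that did not.

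Markers of other cell types also differed among the old libraries, and of these lists the sum of 1, that of smooth muscle and pericytes, followed the order 1, 3, 4, 2. Smooth muscle and pericyte markers summed to 901 to 1144 CPM in young and to 1108, 485, 823 and 669 CPM in old libraries 1 to 4. Of their 8 tested markers 3 were lower in old animals and none was higher. Over all genes tested, 12.5% were called lower and 12.3% higher. Tenocyte markers, all 6 tested of 7 higher in old animals, summed to 714 to 1137 CPM in young and to 5884, 1877, 3328 and 4602 CPM in old libraries 1 to 4. Markers of fibro-adipogenic progenitors (1 of 9 lower, 3 higher) summed to 1794 to 2689 CPM in young and to 3382, 1440, 2628 and 2754 CPM in old libraries 1 to 4. Tenocyte and progenitor sums were highest in old library 1 and lowest in old library 2, with library 4 above library 3. Endothelial (7 tested), leukocyte (4) and erythroid (3) markers had no call (limma, 5, 1 and 0 at an unadjusted p under 0.05). Their sums were highest in old library 3, at 629, 241 and 92.9 CPM, and lowest in old library 2, at 246, 67.8 and 20.1 CPM. Schwann cell and glial markers, 1 of 5 lower, summed to 978 to 1336 CPM in young and 823 to 1076 CPM in old libraries, with old library 4 lowest. Of 10 genes of activation and proliferation 1 passed the filter and was not called, with a log2 fold change of 0.28 (limma, unadjusted p under 0.05). No listed marker was at 3 reads or fewer over all libraries. The sort selects against CD45, CD31 and Sca1, which mark leukocytes, endothelium and fibro-adipogenic progenitors. The part of these cells in the differences between libraries was not tested.

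Further fibre genes were read from lists that the 42 do not hold. Of 93 such genes found, 23 were tested, of which 4 were lower in old animals, 1 was higher and 18 were not called, beside 12.5% lower and 12.3% higher over all genes tested. In excitation-contraction coupling and the sarcolemma 3 of 4 tested genes fell, among them Jsrp1, a protein of the calcium release junction (-0.77 ± 0.19), and Fxyd1, a regulator of the sodium pump (-0.35 ± 0.11, adjusted p = 0.0453, limma). For Fxyd1, 7 of the 8 fits that each omit 1 library gave no call. Of 6 tested genes of fibre energy metabolism only Pfkm, muscle phosphofructokinase, fell (-0.78 ± 0.18), and of 8 tested genes of the Z-disc, M-band and thin filament only Flnc, filamin C, rose (0.57 ± 0.14). None of 5 tested genes of sarcomere assembly and turnover was called (limma, 2 at an unadjusted p under 0.05), and none of 8 genes for further cardiac and developmental isoforms passed the filter. On the deposited scale Flnc was still called higher, while Jsrp1 (-0.16), Pfkm (-0.15) and Fxyd1 (0.30) were not called.

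Of 22 regulators of the fibre programme 9 were tested, 2 fell and 1 rose, beside 12.5% lower and 12.3% higher over all genes tested. Myog, the factor that starts differentiation, had 11.5 ± 6.98 RPKM in young and 1.71 ± 1.05 RPKM in old animals (log2 fold change -2.11 ± 0.41). It passed the filter through the young group alone, since no old library exceeded 2.98 RPKM. Myod1 rose, from 468 ± 51.5 to 809 ± 154 RPKM (0.78 ± 0.16). Of 12 tested genes listed as counterparts in non-muscle cells, such as actins, myosins and calcium pumps, 1 fell and 11 were not called. The gene that fell was Atp2a3 (-0.87 ± 0.22), which stood at -0.31 and was not called as deposited.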

How the data were processed

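RNA of sorted muscle stem cells was measured in 8 libraries. The authors deposited 1 table of RPKM. Per the submitters' processing notes, Trim Galore, STAR, featureCounts, Subread and edgeR were used with mm10/GRCm38, and the sources used here give neither versions nor counting settings. Per the labels' protocols, cDNA was oligo(dT)-primed and amplified, a method that does not mark strand, and was sheared; ERCC spike-in RNA was added and is not used here. Zeros had been replaced by a positive value below the gene's smallest other one in 8293 genes. Reads were recovered because values times gene length are whole multiples of 1 step per library (100% of 23461 genes, distance at most 0.0293 against an allowed 0.03); 37 of the 42 genes had their GENCODE M21 length. Library totals are sums of these reads, and zeros are 0 on that scale.

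limma 3.58.1 (R 4.3.3) with a variance trend was fitted to log2(RPKM + 1), old against young, without covariates. The added 1 makes changes of low genes look smaller. On simulated data for this comparison (5703 genes) 80% of 2-fold and 14% of 1.5-fold changes were called. Every gene was simulated with the same dispersion, 0.05 (variance between libraries beyond counting error). These shares therefore do not hold for genes with a wider spread, such as Myl1 and Tnnt3 (SE 0.46 and 0.48). All members are named; those called, and the highest of each group, are given by library, with up to 4 called genes per further list, of which 2 are not reported here. Members and lists were chosen with earlier results of these data known. Alternatives covered scaling, filter, pseudocount, model, depth, replicate block and left-out libraries.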

Additional observations from a re-analysis of the deposited data

Results flagged for a closer look

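Among the 84 sets of 4 values (42 genes in 2 ages), 5 had 1 library standing apart from the other 3 by Dixon's gap test, and chance flags about 1 in 20 such sets. Young library 2 was high for Myh3 (1.81 RPKM, the others 0.453 to 0.613) and for Ttn (1.04 RPKM, the others 0.428 to 0.519). Old library 1 was high for Tnnc2 (0.436 RPKM, the others 0 to 0.0503) and Myh8 (0.0339 RPKM, the others 0.0111 to 0.0137), which rest on 7 and 8 reads. Young library 3 was low for Ldb3 (0.710 RPKM, the others 1.85 to 1.93).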

How the results depend on the processing

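On library totals, Actn3, Tnnt1 and Tpm3 kept direction and call in all alternatives run there that tested them. On the deposited scale 0 fibre genes were lower, their median log2 fold change was 0.12, and 64 genes in all were lower and 3882 higher. There Mylpf (0.080), Tnnt3 (0.15), Mybpc1 (0.48), Acta1 (0.093), Tpm1 (0.39), Tpm2 (0.48), Ckm (0.20), Pygm (0.18) and Fxyd1 (0.30) changed sign, as all values move up together by construction. The deposited scale with a filter of 1 RPKM, chosen after seeing the data, gave the same fold changes, 0 lower fibre genes (1 at an unadjusted p under 0.05, limma), a median of 0.086 and 4668 higher genes in all. Genes called lower in all were 2279 with a filter of 1 RPKM, 384 with 10 RPKM and 9422 with none, where 19 fibre genes were lower. The number of genes tested changed with the filter, and so did the shares called. From the main filter to 1 RPKM and none, the share lower went from 12.5% to 20.5% and 40.2%. The share higher went from 12.3% to 7.12% and 4.05%. Without young libraries 1 and 2, 2 fibre genes were lower and 1 higher, 453 genes in all were higher, and Mylpf (0.057) and Tpm2 (0.00998) changed sign; the cause was not tested. With each library left out in turn, 2 to 6 fibre genes were lower and 2 higher, the median ran from -0.79 to -0.16, and 476 to 802 genes in all were lower and 475 to 795 higher. The values of Tnnt3 ran from -0.91 to 0.045, of Ckm from -0.80 to 0.066 and of Tpm2 from -0.34 to -0.015; Tnnt3 and Ckm changed sign without old library 2, and without both old library 2 and young library 2, chosen after seeing the data, Tnnt3 (0.21), Tpm2 (0.069) and Ckm (0.12) did so. With the replicate number as a block, 5 fibre genes were lower, with Casq2 added (adjusted p = 0.0414, limma), and 2 higher, and of the further genes named Fxyd1 lost its call. Deviations of same-numbered libraries had correlations of -0.157, -0.063, 0.384 and -0.228, without a common sign. These values cannot show whether the numbers stand for a shared sort or batch, and no pairing was assumed in the main fit. The depth of the young libraries limits genes under about 1 RPKM.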
